A study of Mus musculus with 12 samples.

Results

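The NR4A orphan nuclear receptors Nr4a1 (Nur77), Nr4a2 (Nurr1) and Nr4a3 (NOR-1) were examined in aortic tissue of mice given CM-695 or vehicle. The family was taken by gene symbol from the array annotation, and all 3 members were found among the 22180 genes measured by a probe set that names 1 gene. Each member had 1 probe set, and 0 probe sets named a member together with another gene. Female CD-1 mice, an outbred stock whose animals differ genetically, formed the groups: 6 received CM-695, a dual inhibitor of the deacetylase HDAC6 and the cyclic GMP-degrading phosphodiesterase PDE9, and 6 received saline vehicle. CM-695 was injected intraperitoneally at 80 mg/kg, 2 h and again 1 h before sacrifice. The series design describes a single saline injection, so CM-695 cannot be told apart from a different number of injections. Neither the age of the mice nor the hour of collection is given in the labels. Each mouse was measured on its own Affymetrix array, with values as RMA log2 expression.

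NR4A receptors are transcription factors with no established natural hormone; their ligand pocket is filled by bulky side chains, so their activity follows mainly from how much of them is made. All are immediate early genes: stimuli that raise cyclic AMP or calcium, growth factors, shear stress and inflammatory signals switch them on within an hour or so through CREB, MEF2 and serum response factor, and the transcripts decay quickly. They bind an extended half-site called NBRE as monomers, and Nr4a1 and Nr4a2 can also pair with retinoid X receptors. In the vessel wall Nr4a1 is known to restrain smooth muscle growth and macrophage inflammation, and Nr4a3 to promote smooth muscle proliferation and endothelial adhesion molecule expression.

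The promoters are shown because CREB sites are the best described entry point to these genes. The 250 bases before the annotated start were read from RefSeq (GRCm38.p6), with a sequence found for all 3 members. Capitals mark the CREB half-site TGACG or its reverse complement CGTCA. Nr4a1 lies on the plus strand at chr15:101266596-101266845, Nr4a2 on the minus strand at chr2:57124004-57124253 and Nr4a3 on the plus strand at chr4:48045055-48045304. The annotated spans of Nr4a1 (chr15:101253902-101274795) and Nr4a3 (chr4:48045078-48086447) begin before the start used here, since other transcripts start farther upstream, while that of Nr4a2 (chr2:57106830-57124003) begins at it.
Nr4a1: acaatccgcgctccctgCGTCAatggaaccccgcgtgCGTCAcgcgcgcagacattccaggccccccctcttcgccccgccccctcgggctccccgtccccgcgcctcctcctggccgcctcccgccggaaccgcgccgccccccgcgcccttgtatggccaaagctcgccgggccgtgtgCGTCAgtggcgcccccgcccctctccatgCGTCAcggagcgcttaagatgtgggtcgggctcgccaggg
Nr4a2: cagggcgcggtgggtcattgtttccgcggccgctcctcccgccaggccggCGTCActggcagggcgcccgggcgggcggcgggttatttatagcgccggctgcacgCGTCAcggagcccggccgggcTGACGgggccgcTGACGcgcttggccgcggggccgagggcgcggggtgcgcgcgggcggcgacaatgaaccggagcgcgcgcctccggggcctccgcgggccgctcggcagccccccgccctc
Nr4a3: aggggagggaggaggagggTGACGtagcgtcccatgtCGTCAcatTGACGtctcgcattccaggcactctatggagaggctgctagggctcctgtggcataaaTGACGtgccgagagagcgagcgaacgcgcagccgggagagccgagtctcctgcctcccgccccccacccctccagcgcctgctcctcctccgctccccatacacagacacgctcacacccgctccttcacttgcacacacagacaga

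Each member held 4 CREB half-sites in this window, counted on both strands with overlaps allowed. Of 32851 promoter windows of the same length, 17.8% held at least 1 such half-site, 0.688% at least 3 and 0.137% at least 4. In Nr4a1 they began 233, 213, 69 and 40 bases before the start, in Nr4a2 200, 144, 123 and 111 bases before it, and in Nr4a3 231, 213, 205 and 147 bases before it. The full palindrome TGACGTCA, itself an overlapping pair of half-sites, was in 0 of the 3 windows and in 1.55% of all windows. The E-box CACGTG, read by clock activators, was in 0 of the 3 and in 6.02% of all, and the NBRE AAAGGTCA in 0 of the 3 and in 1.34% of all. The CArG box of serum response factor was searched only in its strict form CCWWWWWWGG, where W is A or T. That form was in 0 of the 3 and in 1.47% of all. Near matches were not counted: the Nr4a1 window holds ccttgtatgg, which is 1 base off the strict form. The windows were rich in G and C (74.4% in Nr4a1, 80.0% in Nr4a2 and 63.6% in Nr4a3), and the share for the half-site was not matched on this. These letter matches describe the sequence and were not tested as sites.

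The table held 41345 probe sets with near-equal array medians (4.69 to 4.74). Of the smooth muscle markers that define the aortic media, 10 of 10 were above the median of all values in vehicle aorta, as were 10 of 10 endothelial and 10 of 10 fibroblast markers. Markers of heart muscle (11 of 11), brown fat (9 of 10) and white fat (9 of 9) were above it too. These markers do not single out 1 cell type, and each value describes a mixed piece of tissue, in which fewer cells of a type and less RNA per cell cannot be told apart.

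Nr4a3 fell to about 32.9% of its vehicle level after CM-695. In vehicle mice its log2 values ran from 6.51 through a median of 7.20 to 8.26, and in CM-695 mice from 5.07 through 5.71 to 5.93. The groups did not overlap: the lowest vehicle animal, mouse 6, was above all 6 treated ones. The group means were 7.23 ± 0.65 and 5.62 ± 0.34 (SD, n = 6 each). They differed by -1.61 (SE 0.27, 95% confidence interval -2.18 to -1.03) or 3.04-fold. Nr4a3 passed the threshold of 0.05 over all probe sets (limma adjusted p = 0.0341), as did 0.144% of all genes in this direction and 0.0225% in the other. In 0.636% of all genes every treated mouse lay below every vehicle mouse, and in 0.442% every one lay above. The call was close to the threshold and not stable: it held in 4 of 12 fits with 1 mouse left out. Over those 12 fits the difference was -1.75 to -1.40. The adjusted p was 0.0718 to 0.0873 when the mouse left out was 3, 4 or 5 of the vehicle group or 1, 3, 4, 5 or 6 of the CM-695 group, with differences of -1.67 to -1.50. The call also ended with the replicate number as a block (adjusted p = 0.0800) and with the mean of heart muscle markers as a covariate (adjusted p = 0.369). The labels do not say that replicate numbers pair mice. Under the block the Nr4a3 difference was the same (SE 0.21), and 15 probe sets passed in place of 64.

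Nr4a2, the member best known from midbrain dopamine neurons, had a smaller mean difference. The vehicle values had a lowest of 6.72, a median of 7.24 and a highest of 7.48, against 5.47, 6.01 and 6.55 after CM-695. Again 6 of 6 treated mice were below every vehicle mouse, with CM-695 mouse 3 closest to the vehicle range and mouse 5 farthest from it. Means were 7.14 ± 0.34 and 6.06 ± 0.41 (SD, n = 6 each), which is a difference of -1.08 (SE 0.20, 95% confidence interval -1.51 to -0.65) or 2.11-fold. Over all probe sets it did not pass (limma adjusted p = 0.0585), and it passed in 5 of 22 alternatives (adjusted p 0.0263 to 0.465).

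Nr4a1, the founding member of the family and the earliest described of these growth factor-induced receptors, had a mean difference close to that of Nr4a2 but overlapping groups. Its vehicle values had a lowest of 8.08, a median of 9.64 and a highest of 10.31, and its CM-695 values 7.56, 8.39 and 8.89. Vehicle mouse 6, at 8.08, was lower than 4 of the 6 treated mice; the other 5 vehicle mice, from 9.43 upward, were above every treated mouse. The means of 9.47 ± 0.74 and 8.33 ± 0.52 (SD, n = 6 each) gave a difference of -1.14 (SE 0.33, 95% confidence interval -1.84 to -0.43) or 2.20-fold, which did not pass (limma adjusted p = 0.266). It passed in 0 of 22 alternatives; the adjusted p was lowest without vehicle mouse 6, at 0.0528 with a difference of -1.42.

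**Figure D1:**
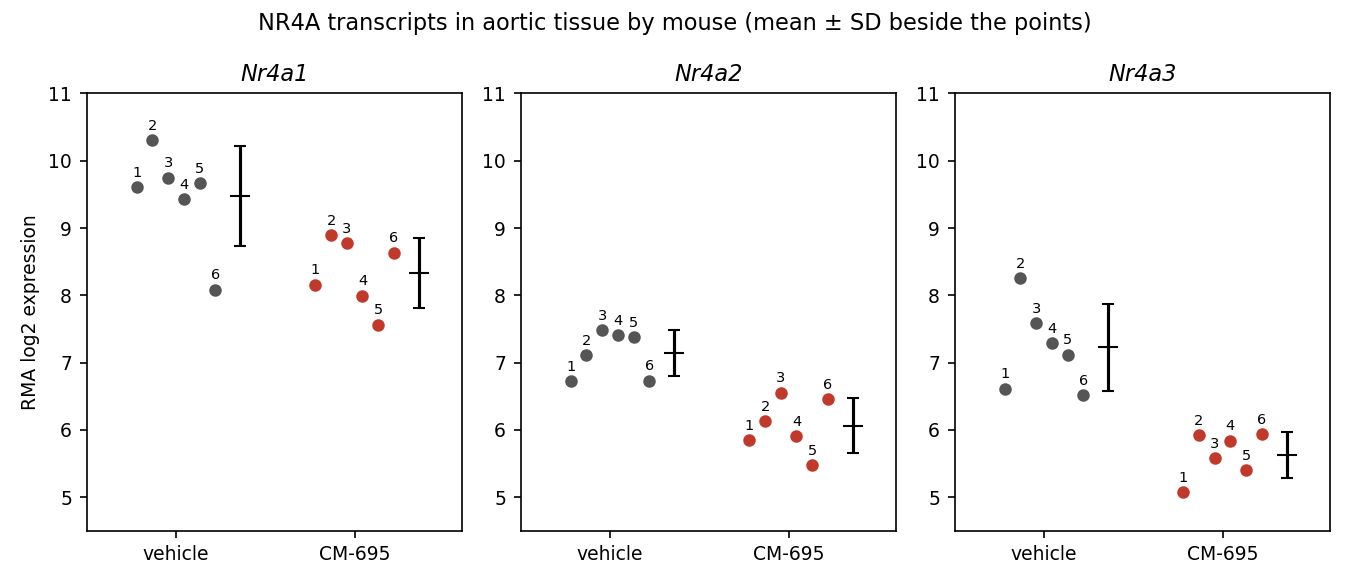
RMA log2 expression (vertical axis) of Nr4a1, Nr4a2 and Nr4a3 in each vehicle (grey) and CM-695 (red) mouse; numbers are the replicate numbers and the bar beside each group is its mean ± SD (n = 6). The groups do not overlap for Nr4a2 and Nr4a3, while for Nr4a1 vehicle mouse 6, at 8.08, lies among the treated mice; levels of different genes are not comparable, since each probe set has its own brightness.

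Without regard to other genes, an exact two-sided permutation test, which runs through the 924 ways to split the mice 6 and 6, gave p = 0.0152 for Nr4a1 and p = 0.0021645 for both Nr4a2 and Nr4a3, the smallest p it can give. All 3 had an unadjusted limma p under 0.05 with a lower value after CM-695, as did 4.14% of all genes; 4.96% had one with a higher value. Among 22180 genes ordered from the most negative difference, Nr4a3 stood at place 21, Nr4a1 at 47 and Nr4a2 at 54. The median difference over all genes was 0.02.

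Whether the receptors changed by different amounts was tested on their log2 difference within each array. An equal log2 shift of all values on an array cancels there, while a change of scale that depends on brightness does not. The value of Nr4a3 relative to Nr4a1 differed between the groups by -0.47 (SE 0.27, 95% confidence interval -1.08 to 0.14; exact permutation p = 0.108, adjusted p = 0.162 over the 3 pairs) or 1.38-fold. Nr4a3 against Nr4a2 gave -0.53 (SE 0.27, 95% confidence interval -1.12 to 0.07; exact permutation p = 0.0714, adjusted p = 0.162), and Nr4a1 against Nr4a2 gave -0.06 (SE 0.29, 95% confidence interval -0.70 to 0.58; exact permutation p = 0.807). None of the 3 pairs passed. The intervals for Nr4a3 include equal differences, and also a difference of Nr4a3 larger than that of Nr4a1 by 1.08 or than that of Nr4a2 by 1.12. Nr4a3 alone passed over all probe sets, but the direct tests did not show that it differed from its relatives.

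**Figure D2:**
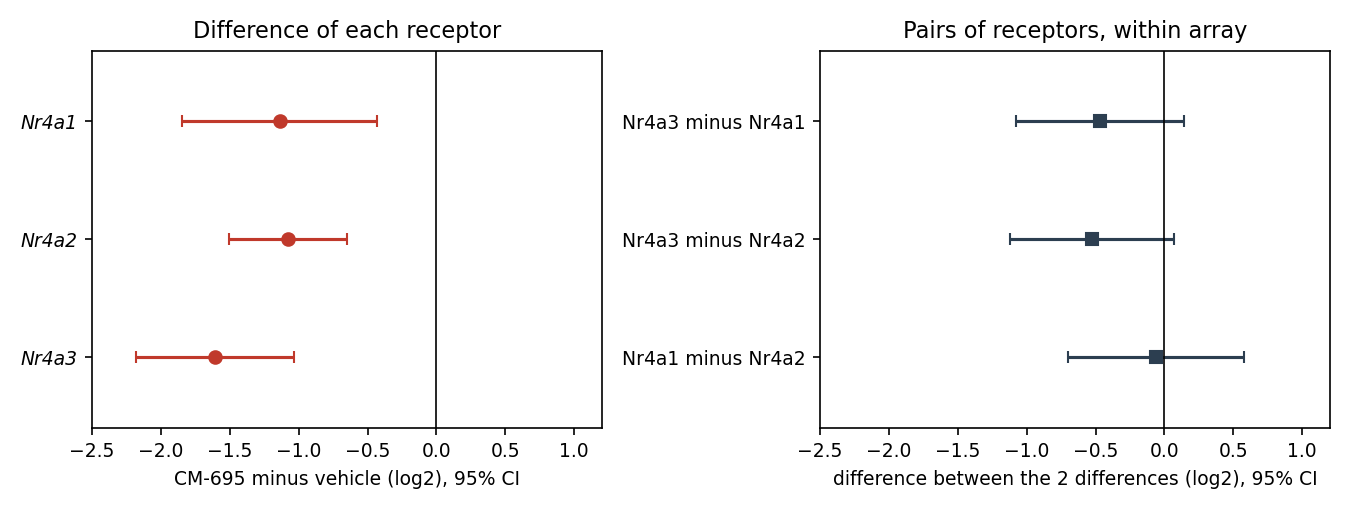
Left, the CM-695 minus vehicle difference of each receptor on the log2 scale with its 95% confidence interval from limma; right, the difference between those differences for each pair of receptors, with the 95% confidence interval of a linear model on within-array values (n = 6 per group). The 3 intervals on the left lie below 0, and the 3 on the right include 0.

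Within each group of 6 mice all correlations between the receptors were positive, and none passed after adjustment. Among CM-695 mice Nr4a1 and Nr4a2 had Pearson r = 0.876 (exact permutation p = 0.0264, adjusted p = 0.158 over 6 pair and group combinations) and Spearman rho = 0.771 (exact permutation p = 0.103, adjusted p = 0.308), with r = 0.968 in the 4 mice left after the 2 farthest from the median of Nr4a1 were dropped. In vehicle mice Nr4a1 and Nr4a3 had r = 0.766 (exact permutation p = 0.0778, adjusted p = 0.233) and rho = 0.829 (exact permutation p = 0.0583, adjusted p = 0.308). Without the 2 farthest mice r dropped to 0.212. Leaving out the farthest mice narrows the range of the first gene by design, which tends to lower r, here and in the other combinations. Whether r rested on those mice was therefore not tested. The other 4 combinations had r between 0.482 and 0.569 and rho between 0.314 and 0.600, with the lowest adjusted p at 0.385 for r and 0.362 for rho by exact permutation. Without the 2 mice farthest from the median of the first gene named, r went from 0.482 to 0.0930 for Nr4a1 and Nr4a2 in vehicle mice and from 0.492 to 0.234 for Nr4a1 and Nr4a3 in CM-695 mice. For Nr4a2 and Nr4a3 it went from 0.569 to -0.783 in vehicle mice, so that the sign turned, and from 0.491 to 0.647 in CM-695 mice. Vehicle mouse 2 was the highest vehicle mouse for Nr4a1 and Nr4a3 but only the fourth highest for Nr4a2, and vehicle mouse 6 was lowest for Nr4a1 and Nr4a3 and next to lowest for Nr4a2.

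Set beside the rest of the nuclear receptor superfamily, which includes steroid, thyroid, retinoid and lipid receptors, the NR4A genes took 3 of the 4 lowest places. Of 42 other receptor genes measured (46 listed), 1 fell and 0 rose over all probe sets. The gene that fell was Nr1d2, which encodes the clock repressor REV-ERB beta, at -1.42 (SE 0.17, limma adjusted p = 0.00282), between Nr4a3 and Nr4a1 in order; with the heart muscle score as a covariate it did not pass (adjusted p = 0.101). The other 41 lay within 0.3 of 0, and the list median was 0.05 against 0.02 for all genes. At an unadjusted p under 0.05, 2 of the 42 (4.76%) were lower and 1 (2.38%) higher, near the 4.14% and 4.96% of all genes. These receptors were Nr1d2, Nr2c2 (-0.23, SE 0.09) and the thyroid receptor gene Thra (0.27, SE 0.12). The heterodimer partners of NR4A receptors showed small differences: 0.11 (SE 0.09) for Rxra, 0.03 (SE 0.10) for Rxrb and 0.20 (SE 0.19) for Rxrg. Nr3c1, the glucocorticoid receptor, differed by 0.05 (SE 0.11, 95% confidence interval -0.18 to 0.28). Esrrg, an oestrogen-related receptor of oxidative muscle, had the next lowest value after the 3 members and Nr1d2, at -0.28 (SE 0.13, limma adjusted p = 0.553). Nr5a1, the steroidogenic factor, differed by 0.17 (SE 0.08). The receptors were not filtered on brightness. Nr5a1 averaged 4.47 in vehicle mice, below the median of all values, 4.72, while the NR4A members averaged 7.14 to 9.47. A transcript near background has little room to fall, which limits what the order of the receptors shows.

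**Figure D3:**
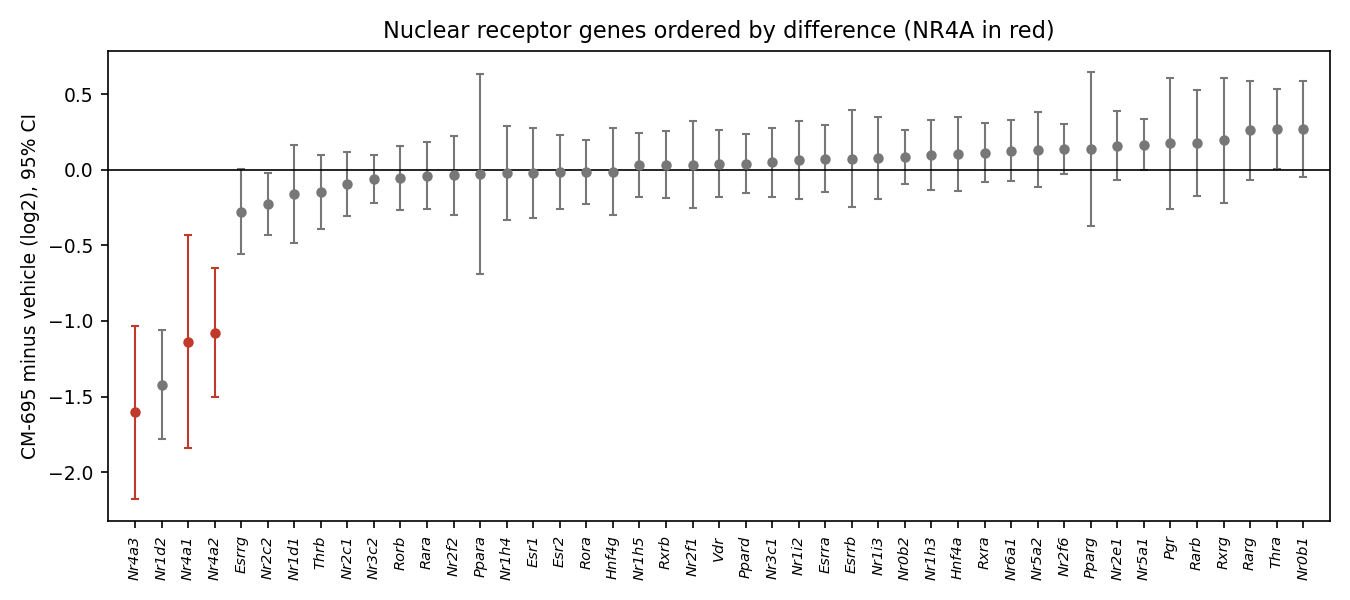
CM-695 minus vehicle difference on the log2 scale (vertical axis) with its limma 95% confidence interval for 45 nuclear receptor genes (horizontal axis), ordered from lowest to highest, NR4A members in red. Nr4a3, Nr1d2, Nr4a1 and Nr4a2 lie at -1.08 or below, and the next gene, Esrrg, at -0.28.

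Transcripts of the factors that switch NR4A genes on showed no gene past the threshold. Of 26 measured (30 listed), 0 rose and 0 fell by limma, and the median difference was -0.04. An unadjusted p under 0.05 was found in 0 of them, against 9.10% of all genes. Creb1 differed by 0.14 (SE 0.10), and its coactivators Crtc1, Crtc2 and Crtc3, which enter the nucleus when cyclic AMP rises, by 0.26 (SE 0.15), 0.04 (SE 0.10) and 0.31 (SE 0.19). The serum response factor gene Srf differed by 0.06 (SE 0.18), and the calcium-responsive factor genes Mef2a and Mef2d by -0.16 (SE 0.12) and -0.02 (SE 0.15). Ep300, a coactivating acetyltransferase, had the smallest p of the list (-0.17, SE 0.09, limma adjusted p = 0.585). Prkaca, the catalytic subunit of protein kinase A, differed by 0.27 (SE 0.17) and Prkg1, the cyclic GMP-dependent kinase of smooth muscle, by -0.33 (SE 0.22). These factors act largely through phosphorylation and localisation, which transcript arrays do not measure.

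Genes that repress NR4A transcription or activity gave no call either, 0 of 13 measured (15 listed) in either direction by limma. At an unadjusted p under 0.05, 2 (15.4%) were lower and 1 (7.69%) higher, beside 4.14% and 4.96% of all genes. Sik1, a cyclic AMP-induced kinase that keeps CRTC coactivators out of the nucleus and is itself a CREB target, was lower by 0.96 in CM-695 mice (SE 0.25, limma adjusted p = 0.212). Its values were 7.45 to 8.49 in vehicle and 6.39 to 7.98 in CM-695 mice, with 4 of 6 treated mice below the vehicle range. Fhl2, a LIM protein that binds NR4A1 and restrains it, differed by -0.49 (SE 0.15, limma adjusted p = 0.333), and Pias4, a SUMO ligase, by 0.27 (SE 0.11). The related kinase gene Sik2 differed by 0.33 (SE 0.16). Among class IIa deacetylases, which hold MEF2 inactive, Hdac7 differed by 0.08 (SE 0.15) and Hdac5 by 0.24 (SE 0.12), and the inducible CREB repressor gene Crem by -0.13 (SE 0.08).

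Among other genes that CREB switches on early, 1 passed. Of 24 measured (25 listed, NR4A members left out), 1 fell and 0 rose over all probe sets, 19 (79.2%) had a difference below 0, as did 44.7% of all 22180 genes, and the median was -0.20 against 0.02. At an unadjusted p under 0.05, 5 (20.8%) were lower and 2 (8.33%) higher, beside 4.14% and 4.96% of all genes. The gene that fell was Per1, a period gene induced by CREB and by glucocorticoids, at -0.99 (SE 0.13, limma adjusted p = 0.00604). That call ended with the heart muscle score, described with the markers, as a covariate (adjusted p = 0.112) and with the replicate block (adjusted p = 0.0800). Csrnp1, an axin-induced nuclear protein, was 5.67 to 6.17 in vehicle and 4.89 to 5.52 in CM-695 mice without overlap. The difference was -0.64 (SE 0.12, limma adjusted p = 0.0569). Fosb, an AP-1 subunit, did not overlap either (-0.58, SE 0.16, limma adjusted p = 0.245). In the opposite direction, the repressor gene Nfil3 had 6 of 6 treated mice above the vehicle range, with a difference of 0.54 (SE 0.12, limma adjusted p = 0.137). The other gene higher at an unadjusted p under 0.05, named after its values were seen, was Rgs2, a regulator of G protein signalling, at 0.93 (SE 0.33, limma adjusted p = 0.391), with its other probe set at 0.69 (SE 0.27) and 4 of 6 treated mice above the vehicle range.

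The wider immediate early class, which NR4A genes belong to, was divided. Of 38 measured genes (41 listed, NR4A members left out), 1 fell and 0 rose, 23 (60.5%) were below 0 against 44.7% of all genes, and the median was -0.07. At an unadjusted p under 0.05, 6 (15.8%) were lower and 4 (10.5%) higher, beside 4.14% and 4.96% of all genes. Some genes, such as Fos, Fosb and Egr1, stand in this and the CREB list. Rhob, an immediate early small GTPase gene, fell by 0.65 (SE 0.10, limma adjusted p = 0.0239). It measured 8.85 ± 0.15 in vehicle and 8.19 ± 0.16 in CM-695 mice (SD, n = 6 each), with no overlap. Leaving out mouse 1, 2, 3 or 6 of the vehicle group, or mouse 1, 3, 5 or 6 of the CM-695 group, ended that call (adjusted p 0.0518 to 0.0722), as did the heart muscle score (0.265) and the replicate block (0.179). The classic members Fos and Egr1 differed by -0.15 (SE 0.25, 95% confidence interval -0.70 to 0.40) and -0.45 (SE 0.30, 95% confidence interval -1.09 to 0.19). Both groups overlapped widely for these: Fos ran from 5.52 to 6.72 in vehicle and 4.93 to 6.34 in CM-695 mice, and Egr1 from 5.87 to 7.64 and 5.38 to 6.72. Ptgs2, the inducible cyclooxygenase gene, differed by -0.82 (SE 0.26, limma adjusted p = 0.343). The mRNA decay factor gene Zfp36l1 had the largest positive difference among these genes, 0.89 (SE 0.17, limma adjusted p = 0.0780), with its other probe set at 0.53 (SE 0.13).

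**Figure D4:**
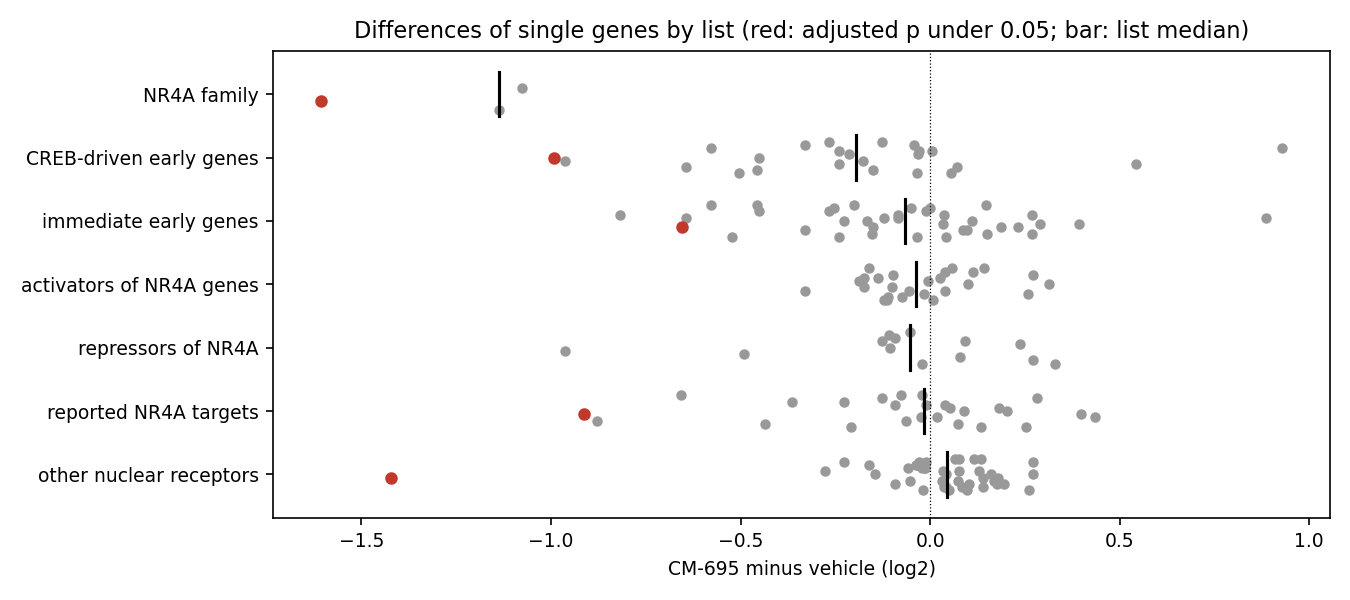
CM-695 minus vehicle difference on the log2 scale (horizontal axis) of each measured gene in 7 lists; red points passed an adjusted p of 0.05 over all probe sets, grey points did not, and the black bar is the list median. The NR4A median of -1.14 lies apart from those of the other lists, -0.20 to 0.05; red points are Nr4a3, Per1, Rhob, Nfkbia and Nr1d2.

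Genes reported in other systems to be regulated by NR4A receptors were divided in direction. Of 26 measured (28 listed), 1 fell and 0 rose, 14 (53.8%) were below 0 against 44.7% of all genes, and the median was -0.02. At an unadjusted p under 0.05, 5 (19.2%) were lower and 1 (3.85%) higher, beside 4.14% and 4.96% of all genes. The gene that fell was Nfkbia, the NF-kB inhibitor that Nr4a1 is reported to induce, at -0.91 (SE 0.11, limma adjusted p = 0.00282). That call ended with the replicate block (adjusted p = 0.0745). The gene is also induced by glucocorticoids and by NF-kB itself. The muscle glycolytic genes Eno3, an enolase described as an NR4A target in skeletal muscle, and Pgam2, a phosphoglycerate mutase, differed by -0.88 (SE 0.28, limma adjusted p = 0.333) and -0.66 (SE 0.28, limma adjusted p = 0.505). Both are striated muscle genes, and heart muscle markers, described next, were lower in the same group. The part of muscle content in the Eno3 and Pgam2 differences was not tested. Birc3, an inhibitor of apoptosis, was lower without overlap but by little (-0.21, SE 0.07, limma adjusted p = 0.397), and the steroidogenic gene Star differed by -0.36 (SE 0.14).

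Heart muscle markers had lower values in the CM-695 group too. All 11 had a lower mean there and none passed by limma. At an unadjusted p under 0.05, 10 (90.9%) were lower, beside 4.14% of all genes. The median was -1.68; Myl7, an atrial myosin light chain, differed by -1.89 (SE 0.50) and the cardiac troponin gene Tnni3 by -1.67 (SE 0.49). Their mean per mouse ran from 7.53 to 9.61 in vehicle and from 6.02 to 8.71 in CM-695 mice. With the heart marker mean as a covariate the differences were -1.49 for Nr4a3, -0.98 for Nr4a2 and -0.97 for Nr4a1. None passed (limma adjusted p = 0.369, 0.465 and 0.713). The SEs were 0.37, 0.28 and 0.45, against 0.27, 0.20 and 0.33 without the covariate. The heart marker mean itself differed between the groups by -1.49, so this fit cannot fully separate it from treatment.

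Markers of other cell types had median differences closer to 0 than those of heart muscle, a comparison that was not tested. Fibroblast markers had a median difference of -0.42, with 10 of 10 below 0 and 0 past the threshold (Dpt, dermatopontin, -0.53, SE 0.18), and their mean per mouse ran from 9.05 to 9.86 in vehicle and 8.77 to 9.40 in CM-695 mice. Smooth muscle markers had a median of -0.29 and a mean per mouse of 9.20 to 10.05 in vehicle and 8.63 to 10.60 in CM-695 mice. With the smooth muscle mean as a covariate Nr4a3 passed at -1.45 (SE 0.22, limma adjusted p = 0.0150). Endothelial and macrophage markers had medians of 0.01 and 0.02, and lymphocyte markers, of which 2 of 8 exceeded the median of all values in vehicle aorta, of 0.14. Neuron and Schwann cell markers had a median of 0.43, with 7 of 8 above 0, 0 past the threshold and 3 of 8 above the median of all values in vehicle aorta. Their mean per mouse ran from 4.12 to 5.18 in vehicle and 4.38 to 6.07 in CM-695 mice. Skeletal muscle, white fat and brown fat markers had medians of 0.07, 0.02 and 0.003. The part of endothelial, fibroblast, macrophage, lymphocyte, skeletal muscle, brown fat, neuron and Schwann cell content in the NR4A differences was not tested.

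The genes most like each member were sought by the Pearson correlation of deviations from the group means over 12 arrays. The search covered 11940 genes with a mean above the median of all values, with predicted genes, clone names and small RNAs left out. For Nr4a3 these were Plxnb1, a semaphorin receptor (r = 0.944, Spearman rho = 0.853), the cytoplasmic actin gene Actg1 (r = 0.911), Zfp692 (r = 0.895), Unc45a, a myosin chaperone (r = 0.894), and Rars (r = 0.889). For Nr4a1 they were the bromodomain gene Brd2 (r = 0.887, rho = 0.839), the kinase gene Tlk1 (r = 0.885), the elongation factor gene Ell (r = 0.883), the DNA repair gene Ercc1 (r = 0.874) and Gad1os (r = 0.865). For Nr4a2 they were Mapre2, a microtubule end-binding protein (r = 0.900, rho = 0.895), Crocc2 (r = 0.891), Otud6a (r = 0.872), Pcsk7 (r = 0.849) and Zfp472 (r = 0.837). No gene stood in more than 1 of these lists. Their treatment differences were small, -0.24 to 0.18, and 0 of the 15 passed over all probe sets. They are the highest of 11940 correlations for each member, so they are high by selection and given as a description. Plxnb1 had 2 probe sets and Actg1 had 6, and only the brightest of each was used.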

How the data were processed

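The deposited table holds log2 expression per probe set and array, which the authors made with RMA (background correction, normalization across arrays, probe summary), per the submitters' processing notes; the labels name no software or version. The table has no detection calls, so a low value may be weak expression or background. Of 41345 probe sets, 23521 named 1 gene in the platform annotation; a RefSeq gene table (GRCm38.p6) matched 23328 of them by identifier, all with the same symbol. A gene measured more than once was represented by its brightest probe set over 12 arrays.

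CM-695 minus vehicle was fitted on all probe sets with limma 3.58.1 in R 4.3.3 (lmFit, eBayes, two-sided), with Benjamini-Hochberg adjustment over all of them and a threshold of 0.05. Exact permutation tests and figures used Python 3.11.15. The procedure was checked beforehand on data with known answers. For arrays the number of mice limits the precision.

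Members and gene lists were chosen with earlier results of these data known. Named genes were the members, 16 regulators and partners, up to 5 per gene list by smallest p, markers with the smallest p, and 5 genes most like each member. Alternatives were the replicate block, a dim-probe filter, 2 further scalings, array weights, another variance prior, adjustment over genes, 3 marker scores as covariates, and leaving out each mouse. The labels name no batch.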

Additional observations from a re-analysis of the deposited data

Results flagged for a closer look

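Among 79 named genes in 2 groups, 158 combinations, 10 had a mouse standing apart from the other 5 of its group by Dixon's criterion, and chance gives about 1 in 20. None was an NR4A gene. CM-695 mouse 2 accounted for 5: Ep300 at 7.82 (next value 7.62), Srf at 7.89 (next 7.11), Hdac5 at 8.06 (next 7.63), Hdac7 at 6.85 (next 6.38) and, on the low side, Lpl at 9.89, below the other 5. Without this mouse the Nr4a3 difference was -1.66 and the Nr4a2 difference -1.09. Vehicle mouse 2 had the highest Fos value, 6.72 (next 5.89), vehicle mouse 6 the lowest Mef2d value, 8.01 (next 8.18), vehicle mouse 4 the highest Egfl7 value, 6.97 (next 6.65), and vehicle mouse 3 the lowest Tnni3 value, 7.30 (next 8.87). CM-695 mouse 4 had the highest Syt1 value, 6.82 (next 5.67).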

How the results depend on the processing

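The differences of Nr4a1, Nr4a2 and Nr4a3 were below 0 in all 22 alternatives run for each. Nr4a2 passed in 5: with the dim-probe filter (-1.08, adjusted p = 0.0295), centred arrays (-1.09, 0.0485), array weights (-1.12, 0.0415), adjustment over genes (-1.08, 0.0263) and the white fat score (-1.08, 0.0454). Nr4a3 lost its call with the heart muscle score (-1.49, adjusted p = 0.369) and with the replicate block (-1.61, adjusted p = 0.0800). The replicate numbers did not pair the mice (correlations of same-numbered deviations from -0.28 to 0.20), and under the block 15 probe sets passed in place of 64. Among the other named calls, Nr1d2, Per1 and Rhob were lost with the heart muscle score and Per1, Nfkbia and Rhob with the block. Probe sets past the threshold numbered 102 with the dim-probe filter, 13 with the heart muscle, 121 with the white fat and 118 with the smooth muscle score, and 22 to 98 with 1 mouse left out. With 1 mouse left out the Nr4a3 difference was -1.75 to -1.40. The Nr4a1 minus Nr4a2 difference, near 0, was 0.0094 with the heart muscle score and -0.26 to 0.11 with 1 mouse left out; the other pairs stayed below 0 and did not pass in their 15 alternatives. The cause of these changes was not tested. Averaging several probe sets was not run, since each member has 1.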
